A study of Mus musculus with 8 samples.

Results

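Smooth muscle contractile genes are 35 named genes for the filaments, membrane proteins and regulator with which smooth muscle cells of the colon wall shorten and relax. All 35 had a probe set with a single gene symbol in the platform annotation, out of 22180 genes so measured. 32 members had 1 such probe set, and for Smtn, Kcnma1 and Ckm, which had 2, the one with the higher mean over all arrays was used. RNA came from the middle colon of female mice of the strain C57BL/6-Trim58tm2313Arte, 9 weeks old. The wild type group was Trim58+/+ (n = 4 mice) and the knockout group Trim58-/- (n = 4 mice), with both copies of this gene for a ubiquitin ligase targeted. Both groups drank dextran sodium sulfate (DSS), a sulfated sugar polymer toxic to colon epithelium, at 4% for 7 days and then plain water for 5 days until day 12. Untreated colon was not part of the comparison, so every value refers to colon after DSS. The tissue was a piece of colon with all its cell types, so fewer muscle cells and less RNA per muscle cell cannot be told apart in any value given here.

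Smooth muscle contracts when calcium, entering through membrane channels or released from stores, activates myosin light chain kinase, which switches on myosin heads that pull on actin filaments. The filaments are anchored in dense bodies and dense plaques and held by desmin intermediate filaments. In the colon the muscle layers are driven by acetylcholine from enteric neurons and paced by interstitial cells of Cajal. Most of the contractile genes are switched on by serum response factor (SRF) together with its muscle-restricted partner myocardin, which bind DNA at the CArG box.

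The 12 members that define smooth muscle most sharply (Acta2, Actg2, Myh11, Tagln, Cnn1, Des, Lmod1, Synpo2, Mylk, Myl9, Smtn and Myocd) had mean signals between the 66.4 and the 99.9 percentile of all genes measured, so muscle RNA was present in these pieces. This rank is a rough guide, since probe sets differ in efficiency. Trim58 itself read 5.22, 5.07, 5.18 and 5.03 in wild type replicates 1 to 4 and 4.91, 5.37, 4.82 and 5.11 in knockout replicates 1 to 4 (log2 signal). The genotypes overlapped (log2 difference -0.07, limma adjusted p = 0.839), so this dim probe set does not check the labels. Knockout replicate 3 stood apart from its group: over all genes it correlated on average at 0.9867 with the other knockouts and at 0.9882 with wild type. It also differed in pancreatic enzyme genes, whose 17 measured list members averaged 10.29 to 11.25 (log2 signal) in the other 3 knockouts. In knockout replicate 3 this average was 5.56, and among the wild type arrays it was 5.67 to 5.80. Neutrophil genes averaged 7.34 to 8.38 in the knockouts and 5.20 to 5.81 in wild type. Without this array the median log2 difference over members was -0.23, against -0.30 with it.

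The comparison asks how loss of Trim58 altered the contractile genes in the DSS-treated colon. No member passed the limma test of knockout against wild type at a Benjamini-Hochberg adjusted p under 0.05 (0 of 35, smallest adjusted p 0.134), where 0.185% of all 22180 genes passed as lower and 0.392% as higher in the knockout. The knockout mean was nevertheless below the wild type mean for 30 of 35 members (53.9% of all genes were below 0). The median log2 difference was -0.30, against -0.01 over all genes. At an unadjusted limma p under 0.05, 11 members were on the lower side, which is 31.4% of them (8.1% of all genes), and 1 member, Cald1, was on the higher side (6.22% of all genes). The genotypes overlapped in all 35, while 5.02% of all genes were separated with every knockout value below every wild type value and 3.79% with every knockout value above. The members share arrays and cells, so their counts are not independent of each other.

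**Figure D1:**
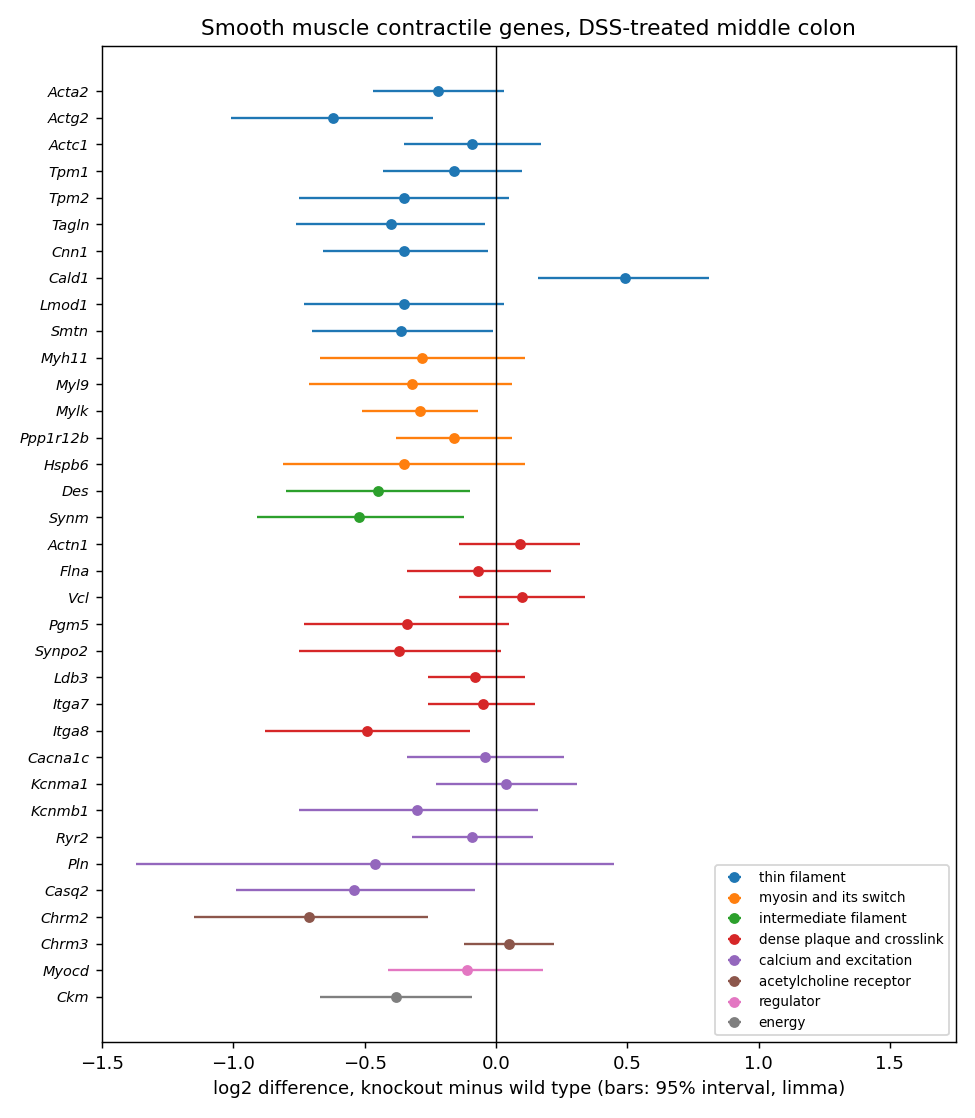
Log2 difference of each of the 35 genes, knockout minus wild type (horizontal axis), with its unadjusted 95% interval from limma (bars; n = 4 mice per genotype) and colours for the role of the gene. 30 of the 35 points lie below 0. Of the 5 above it, Cald1 lies at 0.49 and the others at 0.10 or less.

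The thin filament is built of actin, and 3 actin genes are members. Acta2, the alpha smooth muscle actin, read 12.63, 12.59, 12.31 and 12.69 in wild type replicates 1 to 4 and 12.53, 12.20, 12.19 and 12.44 in the knockouts (log2 signal). Knockout replicates 2 and 3 lay just under the lowest wild type array, and the other 2 knockouts within the wild type range. Knockout minus wild type was -0.22 (log2, 95% interval -0.47 to 0.03, limma adjusted p = 0.429). Actg2, the gamma actin typical of gut smooth muscle, read 11.63, 11.48, 11.11 and 11.73 in wild type and 11.22, 10.60, 10.59 and 11.04 in the knockouts. Here 3 of 4 knockouts lay below every wild type array and knockout replicate 1 lay above wild type replicate 3. The means were 11.49 ± 0.27 and 10.86 ± 0.32 (SD, n = 4 each), a 1.54-fold lower signal in the knockout that missed the adjusted threshold (log2 difference -0.62 ± 0.17 SE, limma adjusted p = 0.134). It was -0.53 without knockout replicate 3 and -0.90 in that array alone. Actc1, the cardiac actin gene, was dim, with wild type values of 5.42 to 5.78 and a log2 difference of -0.09. The signals of the cytoplasmic actin genes Actb and Actg1, which are not members, differed by 0.01 and 0.03. Actins are close in sequence, and whether RNA of one hybridised to the probes of another was not tested.

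Among proteins that bind the thin filament, Tagln (transgelin) read 11.04, 11.07, 10.77 and 11.22 in wild type and 11.01, 10.33, 10.33 and 10.82 in the knockouts. Knockout replicates 2 and 3 were low and knockout replicates 1 and 4 lay inside the wild type range. The log2 difference was -0.40 (95% interval -0.76 to -0.04, limma adjusted p = 0.295). Cnn1 (calponin), an actin-binding inhibitor of myosin ATPase, and Smtn (smoothelin), found in fully differentiated contractile cells, gave -0.35 and -0.36 (adjusted p = 0.302 and 0.332). The second, dimmer probe set of Smtn gave -0.63. The tropomyosin genes Tpm2 and Tpm1, whose products lie along the actin filament, gave -0.35 and -0.16 (Tpm1 -0.25, -0.09 and -0.10 without knockout replicates 1, 2 and 3), and Lmod1 (leiomodin), which starts new actin filaments, gave -0.35 (adjusted p = 0.396). None of these 6 had an adjusted p under 0.05. Without knockout replicate 2, Cnn1 and Smtn were both -0.23.

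Cald1 (caldesmon), another actin- and myosin-binding regulator, went the other way. It read 9.56, 9.35, 9.19 and 9.22 in wild type and 10.17, 9.74, 9.46 and 9.88 in the knockouts. Knockout replicates 1, 2 and 4 lay above every wild type array, and knockout replicate 3 lay within the wild type range. The log2 difference was 0.49 ± 0.14 SE (limma adjusted p = 0.152), 0.60 without knockout replicate 3 and 0.13 in that array alone. The gene makes a long isoform in smooth muscle and a short one in most other cells, and which isoform this probe set reports was not tested. The same 3 arrays carried the pancreatic enzyme RNA, and with that signal as a covariate the difference was 0.20. Its part in the result was not tested further.

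The motor and its switch come next. Myh11, the smooth muscle myosin heavy chain, read 11.56, 11.66, 11.25 and 11.17 in wild type and 11.54, 10.84, 10.84 and 11.31 in the knockouts, so 2 knockouts were below the wild type range and 2 within it. This gave a log2 difference of -0.28 (95% interval -0.67 to 0.11, limma adjusted p = 0.525), and -0.18 without knockout replicate 2 or 3. Myl9, the regulatory light chain, gave -0.32 (adjusted p = 0.446), and -0.19 without wild type replicate 4. Mylk, the light chain kinase that starts contraction, read 8.03, 8.24, 7.86 and 8.06 in wild type and 7.94, 7.62, 7.75 and 7.73 in the knockouts. 3 of 4 knockouts lay below every wild type array, with a log2 difference of -0.29 (95% interval -0.51 to -0.07, limma adjusted p = 0.213). Ppp1r12b, a targeting subunit of the phosphatase that reverses the kinase, gave -0.16. Hspb6, a small heat shock protein linked to relaxation, gave -0.35. Its value of 7.17 in knockout replicate 3 was the lowest of the 8 arrays. Without that array Hspb6 was -0.19. Of these 5 genes, all were below 0 and 1, Mylk, had an unadjusted p under 0.05.

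Both intermediate filament genes were among the 11. Des (desmin) read 11.42, 11.34, 11.09 and 11.44 in wild type and 11.27, 10.55, 10.65 and 11.03 in the knockouts. 3 of 4 knockouts lay below every wild type array, and the log2 difference was -0.45 (95% interval -0.80 to -0.10, limma adjusted p = 0.217). Synm (synemin), which joins desmin to the dense plaques, read 8.31, 8.55, 7.99 and 8.23 in wild type and 8.22, 7.48, 7.44 and 7.88 in the knockouts. It too had 3 knockouts under the wild type range, with knockout replicate 1 at the wild type level. The log2 difference was -0.52 (95% interval -0.91 to -0.12, limma adjusted p = 0.210).

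The genes of dense plaques and filament crosslinks differed among themselves. Actn1, Flna and Vcl encode an actinin, filamin A and vinculin, which many cell types also use for adhesion, and their log2 differences were 0.09, -0.07 and 0.10. The 95% intervals of all 3 ended at or inside -0.34 and 0.34. Pgm5, an enzyme relative found at muscle adhesion sites, and Synpo2 (synaptopodin 2), a dense body protein, gave -0.34 and -0.37 (adjusted p = 0.431 and 0.376), and Synpo2 was -0.23 without knockout replicate 2. Ldb3 and Itga7, a Z-disc protein and a laminin receptor subunit best known from striated muscle, gave -0.08 and -0.05. Itga8, the alpha 8 integrin subunit, read 6.78, 6.84, 6.04 and 6.80 in wild type and 5.97, 5.99, 6.19 and 6.35 in the knockouts. All 4 knockouts were below 3 of the wild type arrays, and wild type replicate 3 lay among the knockouts. The log2 difference was -0.49 (limma adjusted p = 0.225). Without wild type replicate 3 it was -0.68 with an adjusted p of 0.0382, the single call of any member in any alternative run (0.126% of all genes were then called lower).

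**Figure D2:**
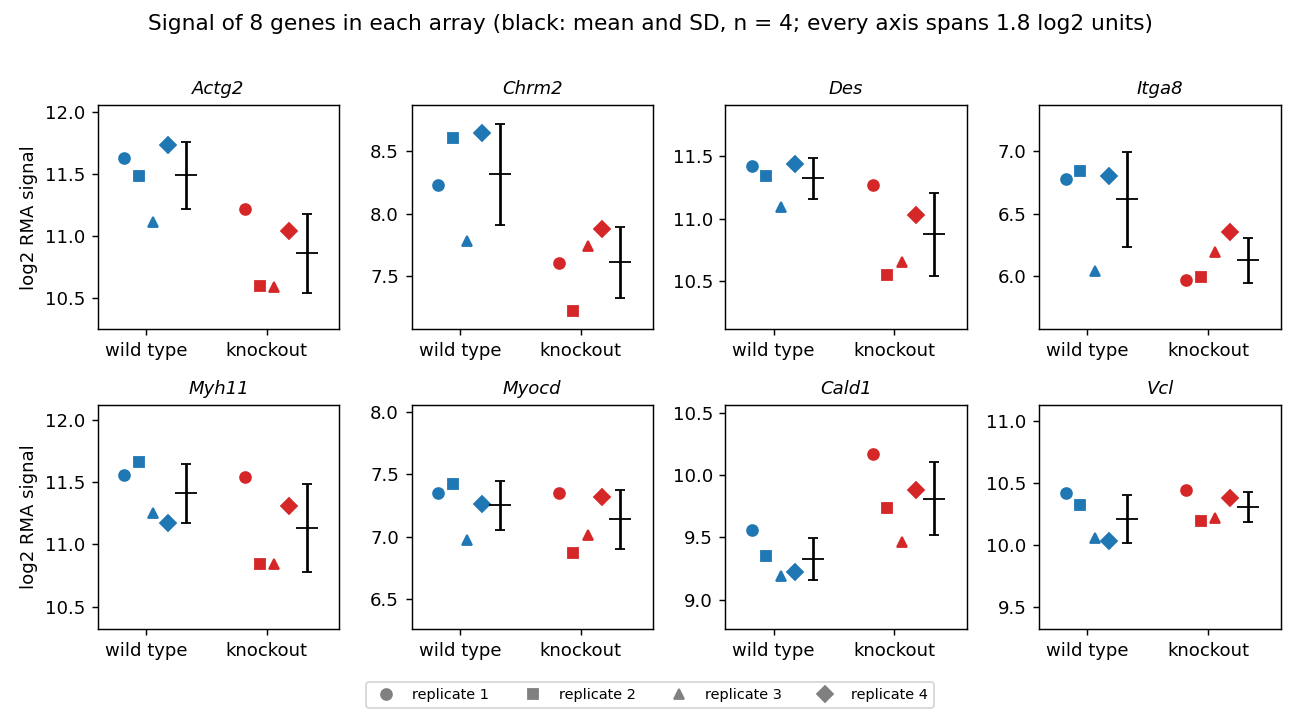
Log2 RMA signal of 8 genes in the 4 wild type arrays (blue) and the 4 knockout arrays (red), with a marker shape for each replicate number and the mean and SD of each group (black, n = 4). Wild type replicate 3 (triangle) is the lowest wild type array for Actg2, Chrm2, Des, Itga8, Myocd and Cald1, and knockout replicates 2 and 3 are the lowest knockouts for Actg2, Des, Myh11, Myocd, Cald1 and Vcl.

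Excitation and calcium genes were mixed. The pore-forming subunits of the L-type calcium channel (Cacna1c) and of the large-conductance potassium channel (Kcnma1) gave log2 differences of -0.04 and 0.04 (95% intervals -0.34 to 0.26 and -0.23 to 0.31). Kcnmb1, the smooth muscle beta subunit of that potassium channel, gave -0.30 (95% interval -0.75 to 0.16), -0.15 without wild type replicate 4 and -0.49 without wild type replicate 3. Among genes of the calcium store, the release channel Ryr2 gave -0.09. Pln (phospholamban), which brakes the store's calcium pump, ranged from 5.75 to 7.71 in wild type and from 5.56 to 7.03 in the knockouts, the widest spread of the 35, so its difference of -0.46 had an interval of -1.37 to 0.45. That difference was -0.13 and -0.79 without wild type replicates 4 and 3, and -0.72 and -0.23 without knockout replicates 1 and 2. Casq2, a calcium-binding store protein, read 6.46, 7.06, 6.14 and 6.76 in wild type and 6.08, 5.72, 6.00 and 6.48 in the knockouts, of which 3 lay below every wild type array (log2 difference -0.54, limma adjusted p = 0.263).

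The muscarinic receptors through which acetylcholine drives gut muscle had unlike values. Chrm2, the more abundant subtype in gut smooth muscle, read 8.23, 8.61, 7.78 and 8.65 in wild type and 7.60, 7.22, 7.74 and 7.88 in the knockouts. 3 of 4 knockouts lay below every wild type array, and knockout replicate 4 lay above wild type replicate 3 alone. The means were 8.32 ± 0.40 and 7.61 ± 0.28 (SD, n = 4 each), the largest difference of the 35, a 1.63-fold lower signal in the knockout (log2 difference -0.71, 95% interval -1.15 to -0.26, limma adjusted p = 0.139). Without wild type replicate 3 it was -0.88. Chrm3, which couples to calcium release, was dim, at 5.46 to 5.60 in wild type and 5.53 to 5.70 in the knockouts, with a difference of 0.05 (95% interval -0.12 to 0.22). Whether the Chrm2 and Chrm3 differences differ from each other was not tested. Ckm, the muscle creatine kinase, read 6.64, 6.92, 6.66 and 6.87 in wild type and 6.76, 6.20, 6.23 and 6.38 in the knockouts, with knockout replicate 1 inside the wild type range and the others below it (log2 difference -0.38, limma adjusted p = 0.208). Its second, dimmer probe set gave -0.03, so the 2 probe sets disagree.

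Myocd (myocardin), the regulator of these genes, read 7.35, 7.42, 6.97 and 7.26 in wild type and 7.35, 6.87, 7.01 and 7.32 in the knockouts. The 2 groups overlapped almost fully, with the same arrays low as for the filament genes. Knockout minus wild type was -0.11 (log2, 95% interval -0.41 to 0.18, limma adjusted p = 0.764). Srf and the other SRF partners Mrtfa and Mrtfb, which are not members, gave -0.03, 0.05 and -0.05. Of 19 measured genes for transcription in smooth muscle, 0 passed the adjusted test in either direction, and at an unadjusted p under 0.05 2 were lower and 0 higher. The smallest p belonged to Klf4, a repressor of the contractile programme that colon epithelium also expresses (log2 difference -0.56, limma adjusted p = 0.0924), followed by Mef2d (-0.21) and Gata6 (-0.15).

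The members moved together from array to array. Over the 8 arrays the median Pearson r of the 595 pairs of members was 0.70, and 34.6% of the pairs had r of 0.8 or more, against a median of 0.00 and 1.41% over all pairs of genes. With the genotype means subtracted the median was 0.67 and the share 28.9% (1.92% over all pairs of genes). These are descriptions over 8 arrays that all pairs share. Synpo2, Acta2, Tpm2, Cnn1 and Pgm5 followed the mean of the other members most closely (r of 0.97, 0.97, 0.96, 0.96 and 0.96). An r of 0.8 with that mean was reached by 23 of 35, and the share of all genes that reach it was not computed. Cald1 (-0.01), Chrm3 (0.07), Kcnma1 (0.11), Actn1 (0.17), Ldb3 (0.33) and Vcl (0.39) were the 6 members under 0.5. With the genotype means subtracted Cald1 and Vcl reached 0.74 and 0.71, so after removal of the genotype difference they were closer to the other members.

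The order of the arrays shows the same pattern. Wild type replicate 3 was the lowest wild type array for 26 of 35 members, or 74.3%, against 27.0% of all genes. Among the knockouts the lowest array was replicate 2 for 19 members and replicate 3 for 15, together 34 of 35, against 51.0% of all genes. For 17 members these 2 knockouts were the 2 lowest of all 8 arrays (6.11% of all genes), and for 16 the 3 lowest arrays were these 2 and wild type replicate 3 (3.21% of all genes). The median over members of each array's distance from the wild type mean was 0.09, 0.11, -0.25 and 0.09 in wild type replicates 1 to 4 and -0.02, -0.49, -0.43 and -0.11 in the knockouts (log2). Knockout replicates 1 and 4 thus sat nearer the wild type mean than wild type replicate 3 did. Among the 12 defining members the medians were 0.10, 0.12, -0.28 and 0.13 in wild type replicates 1 to 4. In knockout replicates 1 to 4 they were -0.07, -0.63, -0.51 and -0.20. Of this low pair, knockout replicate 2 carried the pancreatic signal at 11.25 and knockout replicate 3 was at 5.56.

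**Figure D3:**
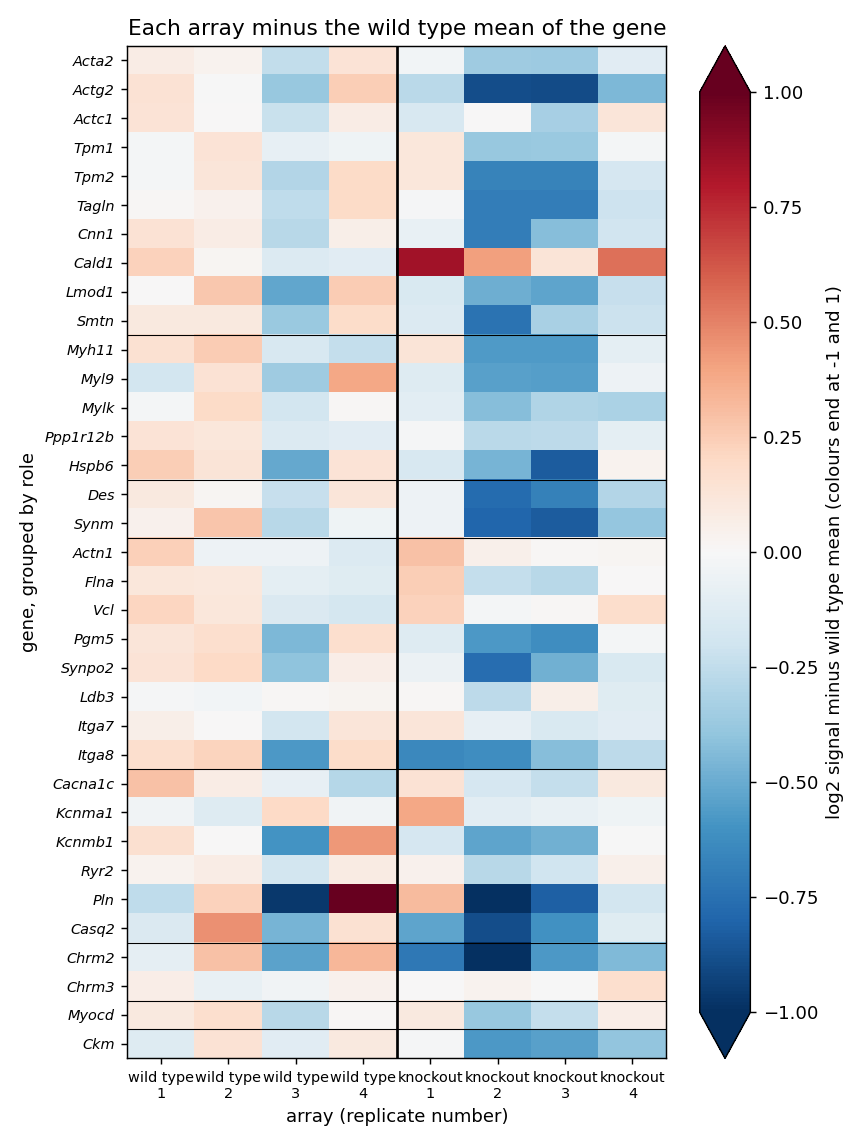
Log2 signal of each gene (rows, grouped by role) in each array (columns) minus the wild type mean of that gene, with blue below and red above it. Knockout replicates 2 and 3 are the darkest blue columns (medians -0.49 and -0.43), wild type replicate 3 is blue in most rows, and knockout replicates 1 and 4 are paler in most rows, with Cald1 red in both and Chrm2, Itga8 and Casq2 blue in replicate 1.

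Single arrays therefore set how many members had an unadjusted limma p under 0.05 on the lower side. The count of 11 became 19 without wild type replicate 3 (9.16% of all genes) and 7 without knockout replicate 3 (7.51% of all genes). It was 8, 5 and 6 without wild type replicates 1, 2 and 4 (7.56%, 6.19% and 7.77% of all genes). It was 16, 6 and 15 without knockout replicates 1, 2 and 4 (7.32%, 5.57% and 7.72% of all genes). 5 genes kept an unadjusted limma p under 0.05 in all 8 fits that each left out 1 array. They were Actg2, Synm, Chrm2 and Ckm, lower in the knockout, and Cald1, higher. The share of all genes that did so was not computed, so this count is no measure of the members as a group. Knockout replicate 3 set alone against the 4 wild type arrays had a member median of -0.43, a description of 1 mouse chosen because it stood apart. With each array's mean of posterior Hox genes, which mark position along the gut, as a covariate, the member median was -0.15 and no member had an unadjusted p under 0.05, while the share of all genes on the lower side fell from 8.1% to 2.9%. With the pancreatic signal as a covariate it was 6 members and 2.89% of all genes. The posterior Hox list averaged 6.37 to 6.46 in wild type and 6.13, 6.15, 6.29 and 6.40 in knockout replicates 1 to 4. Of its 13 measured genes 0 passed the adjusted test and 4 were lower at an unadjusted p under 0.05, with Hoxb13 (-0.91), Hoxd11 (-0.38) and Hoxd12 (-0.26) at the smallest p. Whether the knockout pieces came from another position along the colon was not tested.

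CArG boxes (CC, a run of A or T, then GG) were looked for in RefSeq promoters (GRCm38.p6, 250 bases before to 50 after each start), since SRF and myocardin act there and the members moved together. A window was found for 30 of 35 members, and Myh11, Myocd, Tagln, Itga7 and Actg2 had none. An exact box, on either strand, stood in the windows of 4 of these 30 genes, or 13.3%, against 1.81% of all 27025 genes with a window. They were Actc1, Ldb3, Myl9 and Vcl. Allowing 1 departure from the motif, a setting chosen after the exact matches were seen, gave 14 of 30, or 46.7%, against 23.8% of all genes. The 4 promoters printed next show exact boxes in a member that moved with the others (Myl9, r of 0.82) and in 2 that moved less with them (Vcl and Actc1, 0.39 and 0.52), and inexact boxes in the actin gene most used as a smooth muscle marker (Acta2, 0.97). Myl9 lies at chr2:156775214-156775513, plus strand, Vcl at chr14:20929148-20929447, plus strand, Actc1 at chr2:114052826-114053125, minus strand and Acta2 at chr19:34255324-34255623, minus strand. Capitals mark boxes, exact or with 1 departure.
Myl9: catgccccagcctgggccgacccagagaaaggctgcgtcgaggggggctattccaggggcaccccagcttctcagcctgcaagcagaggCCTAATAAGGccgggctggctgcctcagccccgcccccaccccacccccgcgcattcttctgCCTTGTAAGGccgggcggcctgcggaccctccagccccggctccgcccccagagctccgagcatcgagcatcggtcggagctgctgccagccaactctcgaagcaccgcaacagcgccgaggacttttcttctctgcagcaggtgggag
Vcl: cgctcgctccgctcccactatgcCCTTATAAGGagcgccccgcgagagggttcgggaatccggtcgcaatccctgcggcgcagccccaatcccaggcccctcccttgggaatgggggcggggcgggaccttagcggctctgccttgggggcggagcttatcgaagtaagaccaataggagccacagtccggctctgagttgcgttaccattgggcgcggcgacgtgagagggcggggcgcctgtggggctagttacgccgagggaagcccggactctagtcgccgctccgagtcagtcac
Actc1: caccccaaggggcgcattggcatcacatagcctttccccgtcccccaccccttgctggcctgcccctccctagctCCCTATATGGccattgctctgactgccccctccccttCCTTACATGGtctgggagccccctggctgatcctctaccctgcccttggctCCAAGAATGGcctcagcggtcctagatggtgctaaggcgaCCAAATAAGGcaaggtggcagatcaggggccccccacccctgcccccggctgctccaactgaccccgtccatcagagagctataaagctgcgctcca
Acta2: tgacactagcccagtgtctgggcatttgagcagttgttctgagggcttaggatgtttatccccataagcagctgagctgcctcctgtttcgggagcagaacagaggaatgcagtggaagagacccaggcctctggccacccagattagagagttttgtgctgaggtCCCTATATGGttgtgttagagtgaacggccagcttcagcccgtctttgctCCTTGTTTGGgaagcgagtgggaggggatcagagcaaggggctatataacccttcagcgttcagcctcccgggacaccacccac
The exact boxes read CCTAATAAGG in Myl9, starting 161 bases before the start of the gene, CCTTATAAGG in Vcl at 227 bases and CCAAATAAGG in Actc1 at 47 bases. The same inexact box, CCCTATATGG, stood in Acta2 at 84 bases and in Actc1 at 175 bases. The 4 genes with an exact box had log2 differences of -0.32 (Myl9), 0.10 (Vcl), -0.09 (Actc1) and -0.08 (Ldb3). A match of letters is no evidence of binding, and enhancers outside these windows were not searched.

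Other genes of the contractile machinery, from a list of 43 of which 40 were measured, had a median log2 difference of -0.05. 0 passed the adjusted limma test, and at an unadjusted p under 0.05 4 were lower and 6 higher. The smallest p belonged to the nonmuscle myosin heavy chains Myh9 and Myh10 (0.35 and 0.28) and to the adhesion protein gene Tns1 (-0.35). The list of dystrophin complex and caveola genes, which organise the muscle membrane, had a median of -0.14 over 14 genes with 0 adjusted calls and 0 lower and 1 higher at an unadjusted p under 0.05. Sgcb, a sarcoglycan, gave 0.34, while Popdc2 and Cav1 gave -0.36 and -0.38. Of 11 measured receptor genes 0 passed, with 3 lower and 3 higher at an unadjusted p under 0.05 and a median of -0.11. Grpr, the receptor for gastrin-releasing peptide, had the smallest p and no overlap between genotypes (log2 difference -0.40, limma adjusted p = 0.0630). Agtr1a, an angiotensin receptor, and the ATP-gated channel P2rx1 gave -0.56 and 0.39. Cckar, a cholecystokinin receptor and 1 of the 3 higher, had the largest difference of the list, 1.67. It read 5.45 to 6.03 in wild type and 7.42, 8.46, 5.46 and 8.08 in knockout replicates 1 to 4. The pancreatic enzyme genes were likewise low in knockout replicate 3, and whether pancreatic tissue gave the Cckar signal was not tested.

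The genes outside the 35 most like their mean profile over the 8 arrays were Atp2b4 (r = 0.979), a plasma membrane calcium pump, Tmco6 (0.975), Pdlim3 (0.971), an actinin-associated protein of muscle, 4930480K23Rik (0.968), Mtss2 (0.967), Dmd (0.959), the dystrophin gene, Klhl23 (0.958) and Eefsec (0.958). Pdlim3 read 11.00, 10.93, 10.37 and 10.99 in wild type and 10.71, 9.86, 10.20 and 10.73 in the knockouts, the same low arrays as the members. Its log2 difference was -0.44 (limma adjusted p = 0.372). With the genotype means subtracted the closest were Nup37 (0.989), Ptpn14 (0.982), Tmco6 (0.981), Atp2b4 (0.980), Rassf8 (0.975), Gucy1a1 (0.972), Mtss2 (0.972) and Gucy1b1 (0.971). Gucy1a1 and Gucy1b1, the subunits of the nitric oxide receptor that relaxes smooth muscle, followed the members within each genotype while their own differences were 0.03 and 0.18. These are the highest of 22145 correlations over 8 arrays and carry no test.

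Other cells of the muscle layers had values of their own. Of 6 measured genes of interstitial cells of Cajal, the pacemakers of gut muscle, 0 passed the adjusted test and at an unadjusted p under 0.05 3 were lower and 1 higher. Ano1, their calcium-activated chloride channel, read 10.56, 10.66, 10.36 and 10.34 in wild type and 9.48, 9.34, 9.79 and 10.12 in the knockouts, with no overlap (log2 difference -0.80, limma adjusted p = 0.0625). Kit, their defining receptor, gave -0.34 (adjusted p = 0.161) and Gja1, a gap junction gene, 0.38. Knockout replicate 1, which was at the wild type level for most contractile genes, was low for Ano1. Of 13 enteric neuron genes 0 passed the adjusted test, and 4 were lower at an unadjusted p under 0.05, led by Snap25 (-0.67), Uchl1 (-0.44) and Nos1 (-0.23), with a median of -0.11. Of 6 enteric glia genes 0 passed and 1, Gfra3 (-0.22), was lower at an unadjusted p under 0.05, with S100b at -0.11 and Cdh19 at 0.13.

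Fibroblast genes were the other large stromal group. Of 14 measured, 1 was called higher, Col1a2, a type I collagen chain (log2 difference 0.64, limma adjusted p = 0.0396), 5 were higher and 0 lower at an unadjusted p under 0.05, and the list median was 0.18. Col1a1 and Col3a1 gave 0.68 and 0.58. The median distance of this list from the wild type mean was 0.15, 0.10, -0.49 and 0.37 in wild type replicates 1 to 4 and 0.23, 0.24, -0.01 and 0.47 in the knockouts. Wild type replicate 3 was thus low for fibroblast as well as contractile genes, while knockout replicate 2 was low for contractile genes and above the wild type mean for fibroblast genes. In wild type replicate 3 the endothelial and pericyte lists stood at -0.21 and -0.20. The enteric neuron, pacemaker and epithelial lists stood at -0.09, -0.09 and 0.01 there. Endothelial genes had 4 of 12 higher at an unadjusted p under 0.05 and 0 adjusted calls (median 0.13, with Pecam1 at 0.37, Eng at 0.48 and Cdh5 at 0.46). The 9 pericyte genes had 0 at an unadjusted p under 0.05 (median 0.05, with Pdgfrb at 0.24, Ndufa4l2 at -0.12 and Rgs5 at 0.16).

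**Figure D4:**
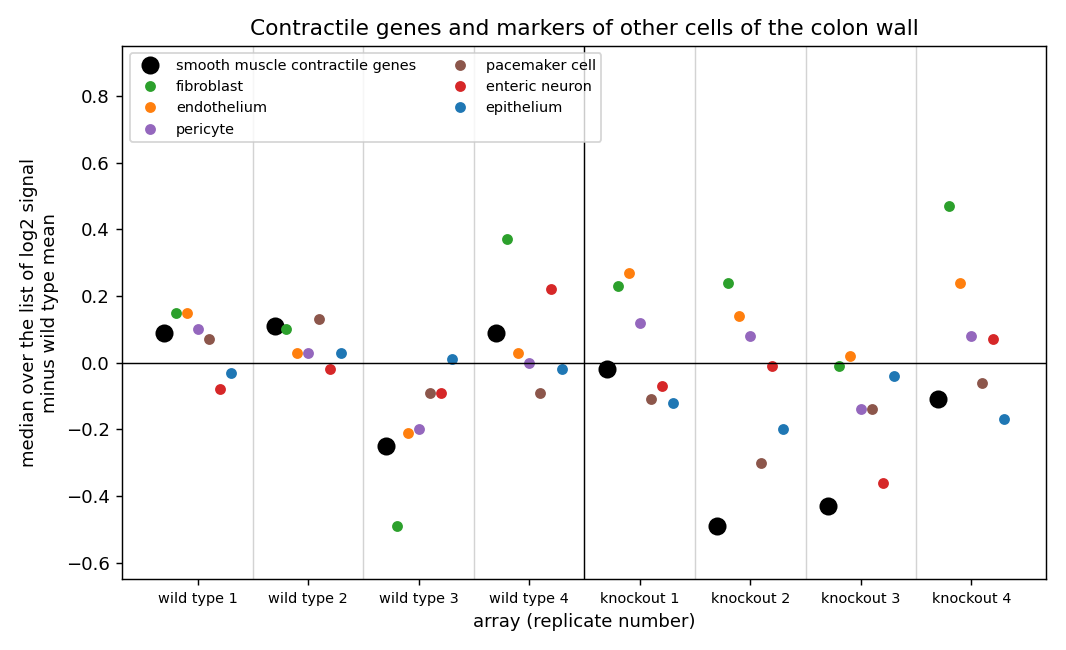
Median over each list of the log2 signal minus the wild type mean of the gene (vertical axis) in each of the 8 arrays (horizontal axis), for the contractile genes (large black points) and 6 marker lists. The contractile genes are lowest in knockout replicates 2 and 3 (-0.49 and -0.43), where the fibroblast list stands at 0.24 and -0.01, and in wild type replicate 3 they are low together with the fibroblast list (-0.25 and -0.49).

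Epithelial genes had 13 of 14 below 0 with 0 adjusted calls and 3 lower at an unadjusted p under 0.05 (median -0.12, with Tff3 at -0.41, Cldn3 at -0.38 and Elf3 at -0.23). Striated muscle was checked because Actc1, Ckm, Casq2, Ryr2, Pln and Ldb3 are best known from it. Of 18 striated muscle genes 0 passed the adjusted test, 2 were lower and 1 higher at an unadjusted p under 0.05, and the list mean was 5.32 to 5.41 in wild type and 5.22 to 5.40 in the knockouts. Acta1, the skeletal actin that gut muscle can also express, gave -0.56, Myh2 -0.46 and Pvalb 0.33. The fast myosin genes Myh1, Myh4 and Myh2 had wild type means of 3.90, 4.28 and 5.87. Other genes of the list read higher, such as Tnnc2 at 6.71 and Acta1 at 7.72. Of 9 cardiac genes 0 passed, 1 was lower and 1 higher at an unadjusted p under 0.05 (Tnnt2 at -0.48 and Myl7 at 0.55), and Myh6 gave -0.20. Mesothelial and adipose genes, markers of tissue outside the muscle coat, had 0 of 7 and 0 of 7 at an unadjusted p under 0.05, with medians of -0.05 and 0.00. Krt19, Wt1 and Muc16 gave -0.14, 0.11 and -0.05, and Lep, Plin4 and Lpl gave 0.46, -0.16 and 0.21. The wild type mean of Krt19 was 11.03, against 5.68 and 4.27 for Wt1 and Muc16. Whether the Krt19 signal came from mesothelium was not tested. Of 12 neutrophil genes 11 were called higher, with S100a9, Stfa2l1 and S100a8 at 3.11, 2.85 and 3.20. Of the 17 pancreatic genes 0 were called and 15 were higher at an unadjusted limma p under 0.05. Ctrl, Try4 and Cel had the smallest p, with differences of 4.68, 4.35 and 5.47. Their SDs were 2.81, 2.70 and 3.59 in the knockouts and 0.15, 0.06 and 0.17 in wild type.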

How the data were processed

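Each of 8 mice gave 1 Affymetrix whole-transcript array, made from 200 ng of total RNA of the middle colon with the WT PLUS kit, per the labels' protocols. Replicates are separate mice. The authors deposited log2 values from RMA in Affymetrix Expression Console 1.4, per the submitters' processing notes. RMA gives arrays a common distribution and compresses differences near background and saturation. Array medians lay between 5.73 and 5.83. For filters and scan dates the sources used here give nothing. The number of arrays limits the precision.

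The table held 41345 probe sets, of which 23521 carried 1 symbol in the platform annotation, 1814 several and 16010 none. RefSeq (GRCm38.p6) held the Entrez identifiers of 23328. The probe set with the highest mean stood for each of 22180 genes. Knockout minus wild type was fitted in limma 3.58.1 (R 4.3.3) with genotype as the single term, lmFit and eBayes. Adjusted p-values are Benjamini-Hochberg over all 22180 genes, with a threshold of 0.05. Intervals are 95% and unadjusted. The fit was also run on simulated data in which genes varied independently, unlike the members, which moved together. Named genes are all members, the 3 of each list with the smallest p, and the 8 most alike in each profile. Actb, Actg1, Srf, Mrtfa, Mrtfb, Myh1, Myh4, Tnnc2 and Cckar were named after their values were seen. The members, lists and alternatives were chosen with earlier results of these data known. Lists are described by counts and medians and carry no test. The result of 1 further list is not reported here.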

Additional observations from a re-analysis of the deposited data

Results flagged for a closer look

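In 70 groups of 4 arrays (35 genes in each genotype), 6 held an array whose gap to the nearest other array exceeded Dixon's 95% critical share of the group's range, where chance flags about 1 group in 20 and the members share arrays. Wild type replicate 3 was the low array in 4 of them. Smtn read 8.62 there against 9.09 to 9.18 in the other wild type arrays, Hspb6 7.49 against 8.13 to 8.25, Pgm5 9.26 against 9.83 to 9.88, and Itga8 6.04 against 6.78 to 6.84. Knockout replicate 1 was the high array in the other 2. Actn1 read 10.87 there against 10.59 to 10.63 in the other knockouts, and Kcnma1 9.31 against 8.82 to 8.88.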

How the results depend on the processing

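The alternatives were 18 fits, which changed the variance model, the array weighting, the normalization or scaling, the filter on dim genes (33.3% left out), the probe set rule, the replicate block, the covariates or the arrays used. Of 630 member values in them, 612 kept their direction and their side of the adjusted threshold, 17 changed sign and 1 passed the threshold, Itga8 without wild type replicate 3. Adjusted calls on the lower side thus ranged from 0 to 1 when 1 array was left out. The count on the lower side at an unadjusted p under 0.05 was 11, 5 to 19 with 1 array left out, 6 with the pancreatic covariate and 0 with the posterior Hox covariate. In the same fits the share of all genes was 8.1%, 5.57% to 9.16%, 2.89% and 2.9%. The count on the higher side was 1, and 0 with either covariate or with knockout replicate 3 alone, a fit whose spread comes from the wild type arrays only. The cause of these moves was not tested. The median over members was -0.30, and -0.42 to -0.20 with 1 array left out. Adjusted calls over all genes, 41 lower and 87 higher, ranged from 1 to 80 and from 24 to 172 with 1 array left out.

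Sign changes were in small values. With the posterior Hox covariate Actc1 was 0.0022, Actn1 -0.06, Kcnma1 -0.14, Ryr2 0.01 and Myocd 0.01. With the pancreatic covariate Ldb3 was 0.07, Kcnma1 -0.03 and Chrm3 -0.01, and with knockout replicate 3 alone they were 0.06, -0.08 and -0.01. With 1 array left out Flna ranged from -0.17 to 0.0027, Cacna1c from -0.14 to 0.06 and Kcnma1 from -0.08 to 0.10.

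The groups share replicate numbers, but over all genes same-numbered arrays did not deviate together (correlations of -0.142, -0.16, 0.042 and 0.052). Such correlations show no pairing but cannot exclude one, and the main fit had no block. With the replicate block 19 members had an unadjusted p under 0.05 on the lower side (7.62% of all genes), 0 passed the adjusted threshold, and 8 genes were called lower and 56 higher over all genes.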
